A study of Mus musculus with 4 samples.

Results

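Chemokine receptors are the heptahelical receptors that leukocytes use to read chemokine gradients, and 9 of their genes were described here across the cell classes of mouse tibial bone and marrow. The 9 genes were taken by name: Cxcr2, Cxcr4, Cxcr3, Cxcr5, Ccr1, Ccr2, Ccr7, Ccr9 and Cx3cr1. All 9 were found among the 31053 genes of the count table, and all 9 had at least 20 unique molecular identifiers (UMIs, the tags that count each captured RNA molecule once) in the kept cells. Another 16 chemokine receptor and decoy receptor genes and 32 chemokine ligand genes of the table served as comparison.

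A chemokine receptor couples to inhibitory G proteins, and its engagement turns a cell toward the source of the ligand. In marrow the best known pair is Cxcr4 with Cxcl12, which stromal cells make and which holds stem cells, B cell precursors and neutrophils in place. Cxcr2 reads the chemokines that draw mature neutrophils out to the blood, and Ccr2 is needed for classical monocytes to leave the marrow. Ccr7 and Cxcr5 guide lymphocytes to the T cell zone and the B cell follicle of lymphoid organs, Cxcr3 guides effector T cells to inflamed tissue, Ccr9 guides cells to thymus and gut, Ccr1 is an inflammatory receptor of myeloid cells, and Cx3cr1 is a receptor of patrolling monocytes and tissue macrophages.

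All cells came from mice 8 weeks of age carrying Col10a1Cre, the Rosa26-Tdtomato reporter, Irx3 +/Δ and Irx5 +/-, the Irx3/5 heterozygous control, with no PTH. Col10a1Cre acts in hypertrophic cartilage cells and their descendants, while most receptor UMIs came from blood cells. The cells were released from proximal and distal tibia with dispase, collagenase and trypsin. There were 4 sample records but 1 count table, whose barcodes carry no mark of the record they came from. The design therefore has 1 group and no replicate: no test between conditions could be made, and every interval below is a 95% interval for counting error only (exact Poisson for levels, Clopper-Pearson for shares, exact conditional binomial for ratios).

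The table held 15014 barcodes with 90273806 UMIs, between 500 and 80413 per barcode. After filters and removal of 522 called doublets, 10485 cells remained with a median of 4855 UMIs. They fell into 39 clusters, which gave 20 classes named from marker genes and 508 unnamed cells in 9 clusters. The receptors and every other chemokine system gene were left out of the genes used for clustering, so that a receptor's level in a class was not used to form the class. Of the 20 classes, 17 had at least 50 cells and were ranked. Bone cells were few: 34 osteoclast-like cells led by Ctsk and Acp5 and 14 osteoblast-like cells led by Bglap and Col1a1. The other named classes were blood lineages. A cluster of 105 cells led by Cxcl12 and Igfbp5 stayed unnamed, with 8 of 12 osteoblast and 7 of 12 marrow stromal markers raised.

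Levels are given as receptor UMIs per 1000000 UMIs of the class (CPM) and compared only within a receptor. The 9 receptors were highest in 7 classes. Cxcr2 and Ccr1 were highest in mature neutrophil-like cells, Ccr2 in monocyte-like cells, Cx3cr1 in macrophage-like cells, Ccr9 in plasmacytoid dendritic-like cells and Cxcr3 in T-like cells. Ccr7 and Cxcr5 were highest in immature or mature B-like cells. Cxcr4 had a UMI in 64.3% of kept cells, against 0.782% for Cxcr3, the least often detected of the 9, and was spread over nearly all blood classes. With a mitochondrial limit of 5% in place of 10%, which kept 5490 cells and left 22.1% of them unnamed, 3 of the 9 leading classes stayed the same. T-like, immature or mature B-like, plasmacytoid dendritic-like and macrophage-like cells were not named classes there, and basophil-like cells, still highest in Cxcr4 at 1296 CPM, had 39 cells and so were not ranked.

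**Figure D1:**
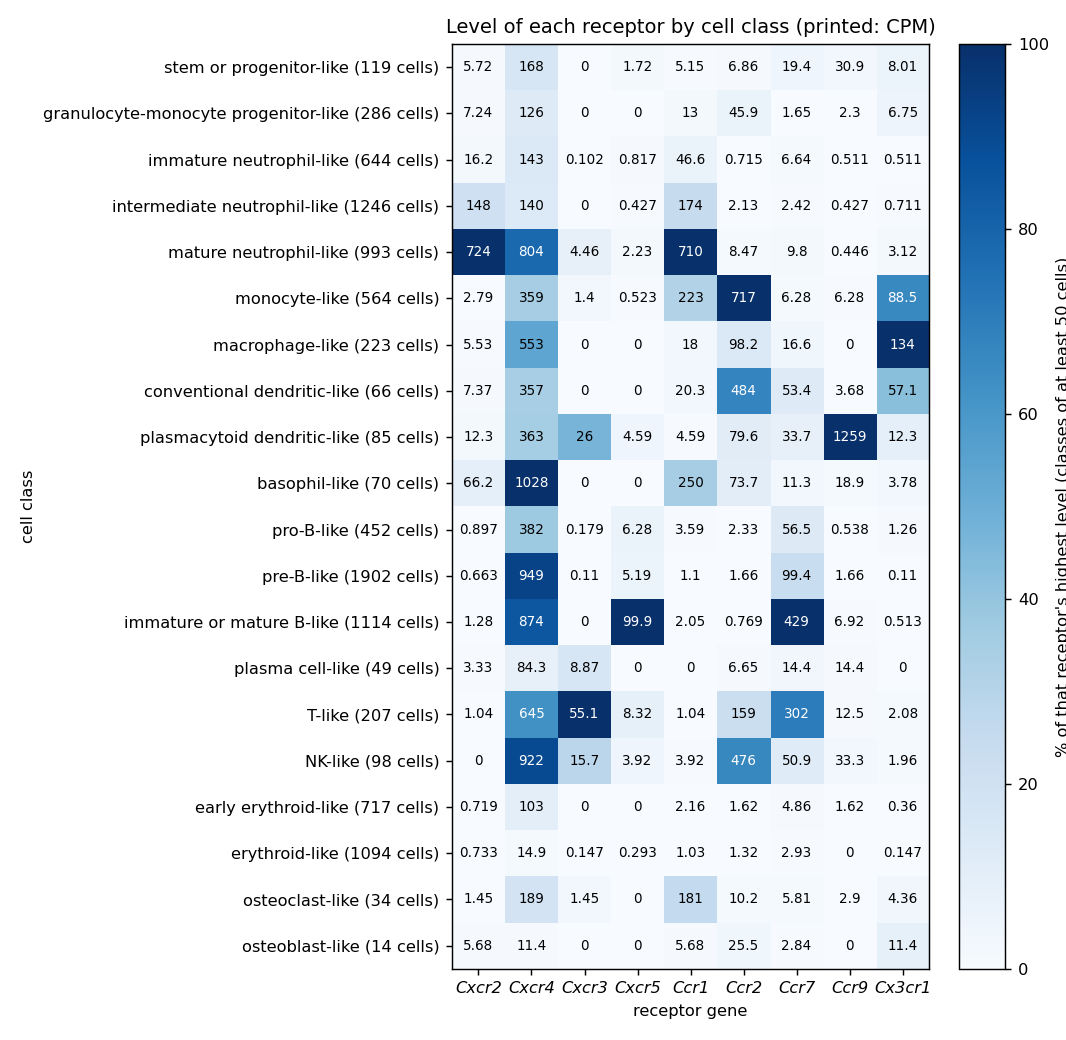
Level of the 9 receptors (columns) in the 20 named classes (rows), printed as CPM and shaded as a percentage of that receptor's highest level among classes of at least 50 cells. Cxcr2 reaches 724 CPM in mature neutrophil-like cells and Ccr9 reaches 1259 CPM in plasmacytoid dendritic-like cells. Cxcr4 is dark in basophil-like, pre-B-like, immature or mature B-like, NK-like and mature neutrophil-like rows.

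The upstream sequences of Cxcr2, Ccr1 and Cxcr4 are shown because these genes were high together in mature neutrophil-like cells. Each line holds 240 bases on the gene's strand that end 10 bases before the RefSeq start (GRCm38.p6), outside the exons of GENCODE M21. Capitals mark matches to 5 short motifs searched on both strands.
Cxcr2 (chr1:74153744-74153983, plus strand): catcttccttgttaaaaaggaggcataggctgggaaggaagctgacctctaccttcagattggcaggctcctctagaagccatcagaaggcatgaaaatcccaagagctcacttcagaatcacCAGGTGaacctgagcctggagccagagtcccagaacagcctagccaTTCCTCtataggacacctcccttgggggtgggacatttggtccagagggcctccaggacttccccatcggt
Ccr1 (chr9:123968703-123968942, minus strand): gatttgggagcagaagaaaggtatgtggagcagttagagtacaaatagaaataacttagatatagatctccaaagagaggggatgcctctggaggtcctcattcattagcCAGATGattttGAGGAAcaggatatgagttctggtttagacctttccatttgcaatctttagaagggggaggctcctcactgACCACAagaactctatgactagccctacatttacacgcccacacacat
Cxcr4 (chr1:128592310-128592549, minus strand): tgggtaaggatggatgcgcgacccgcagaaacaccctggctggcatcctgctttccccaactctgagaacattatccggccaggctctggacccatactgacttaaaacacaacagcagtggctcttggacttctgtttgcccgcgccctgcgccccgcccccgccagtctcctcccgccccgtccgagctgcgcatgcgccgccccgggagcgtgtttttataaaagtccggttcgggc
The Cxcr2 window held 1 match to the PU.1 core (GAGGAA) and 1 to the E protein motif (CAGNTG). The Ccr1 window held 1 match each to the PU.1 core, the E protein motif and the RUNX motif (TGTGGT). The Cxcr4 window held no match to any of the 5, and none of the 3 windows matched the C/EBP motif (TTGCNNAA) or the IRF motif (GAAA repeated after 2 bases). Matches did not overlap each other. Among 32851 RefSeq promoters cut to the same 240 bases, 22.3% held the PU.1 core, 43.6% the E protein motif, 13.6% the RUNX motif, 9.29% the C/EBP motif and 2.87% the IRF motif. A match is a description of letters and not a binding site.

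Along the neutrophil lineage Cxcr2 was higher at each later stage. It had 7.24 CPM in granulocyte-monocyte progenitor-like cells, 16.2 CPM in immature neutrophil-like cells, 148 CPM in intermediate cells and 724 CPM (689 to 760) in mature cells. The mature class held 52.0% of all Cxcr2 UMIs and the intermediate class 33.3%. Mature cells were 44.6-fold (37.8 to 52.8) above immature ones. Within the intermediate class, the 562 cells led by Mmp8 and Retnlg had 282 CPM against 71.3 CPM in the 684 cells led by Ly6g and Ifitm6, a ratio of 3.95 (3.46 to 4.52). So the step in Cxcr2 was also present between the clusters of that class.

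Ccr1, the receptor for Ccl3, Ccl5, Ccl6 and Ccl9, followed the same order. It had 46.6, 174 and 710 CPM in immature, intermediate and mature neutrophil-like cells, and 79 UMIs in 37 of 286 progenitor-like cells. The ratio of mature to immature cells was 15.2 (13.7 to 16.9). The immature class was already split: 63.8 CPM in the 405 cells led by Chil3 against 23.3 CPM in the 239 cells led by Fcnb and Camp, a ratio of 2.74 (2.18 to 3.46). For Cxcr2 the same clusters had 17.8 and 14.2 CPM, a ratio of 1.25 (0.900 to 1.76) that counting error could not tell from 1. Ccr1 was also read outside neutrophils, with 250 CPM in basophil-like cells, 223 CPM in monocyte-like cells and 181 CPM in the 34 osteoclast-like cells.

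Cxcr4 did not follow this order. It stood at 126 CPM in progenitor-like cells, 143 CPM in immature and 140 CPM in intermediate neutrophil-like cells, and at 804 CPM (768 to 842) in mature ones. Within the intermediate class it had 186 CPM in the Mmp8-led cells and 113 CPM in the Ly6g-led cells, a ratio of 1.65 (1.45 to 1.87). Mature cells were 5.63-fold (5.25 to 6.04) above immature cells, so Cxcr4 and Cxcr2, a retention and a release receptor, were both highest in the mature class. At the level of the cell the raw count was close to the product of the shares: 475 of 993 mature cells had UMIs of both, against 479. Thinned to 1000 UMIs, 212 of 948 mature cells had both, against 230 from the product. Whether the 2 receptors were read in separate cells was not tested further. Of the immediate early genes, Fos had 794 CPM and Dusp1 1239 CPM in mature cells, against 224 and 14.9 CPM in the immature class, Egr1 135 against 19.8 CPM, and Jun 86.0 against 87.1 CPM. Their part in the Cxcr4 level was not tested.

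Of the 9 receptors, 5 had enough UMIs to compare mature with immature neutrophil-like cells, and 4 of them were at least 2-fold higher and none lower, where 21.4% of all 9573 genes compared were higher and 31.8% lower. The fourth was Ccr2 with 19 UMIs in mature and 7 in immature cells (8.47 and 0.715 CPM), which no longer passed 2-fold when doublets were kept (log2 ratio 0.72). Ccr7, with 9.80 and 6.64 CPM, was within 2-fold. Set against all other kept cells, the mature class was at least 2-fold higher for 4 receptors (Cxcr2, Cxcr4, Cxcr3 and Ccr1) and lower for 5, where 14% and 48.7% of 13615 genes were called. The Cxcr3 call rested on 10 UMIs in mature cells, a ratio of 3.15 (1.47 to 6.05). Each class set against all other kept cells was chosen for the highest level of a receptor, which favoured that receptor being higher.

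**Figure D2:**
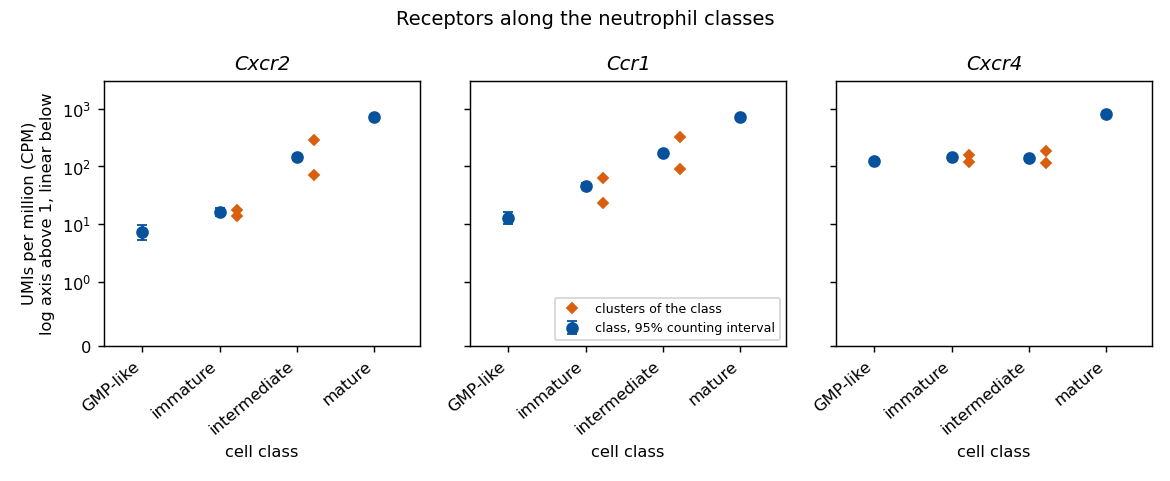
CPM (symmetric log axis, linear below 1) of Cxcr2, Ccr1 and Cxcr4 in the 4 neutrophil lineage classes. Blue points are classes with 95% counting intervals, orange diamonds the clusters of a class with more than 1 cluster. Cxcr2 and Ccr1 climb through every class, whereas the class levels of Cxcr4 lie between 126 and 143 CPM before the mature class, with clusters of the intermediate class at 113 and 186 CPM.

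Other genes of the pathway were compared over the same stages from lists chosen by function. Of all 9573 genes compared, 21.4% were higher and 31.8% lower in mature cells. Among 16 other receptor genes, 3 had enough UMIs and all 3 were higher in mature than in immature cells: Gpr35 (125 against 0.409 CPM), Cxcr1 (10.7 against 0.102 CPM), and the decoy receptor Ccrl2 (294 against 13.1 CPM). Of 32 ligand genes, 7 of 11 with enough UMIs were higher and 2 lower, with a median log2 ratio of 4.33 against -0.26 for all genes. Cxcl2, itself a ligand of Cxcr2, had 913 CPM in mature and 1.74 CPM in immature cells. Ccl6 had 2260 and 6.23 CPM, while Ccl25 and Ccl27a were lower in mature cells at 2.23 against 7.05 CPM and 0.446 against 3.98 CPM. Of 35 signalling and desensitisation genes, 33 could be compared, 13 were higher and 1 lower, with a median of 0.76. Rgs1, which shortens G protein signals, had 180 and 3.27 CPM, and Gng2, a G protein subunit, 164 and 8.89 CPM. The receptor kinases Grk3 (2.67 against 10.8 CPM) and Grk6 (78.9 against 124 CPM) had the lowest ratios of that list. Of 19 other homing and egress genes, 17 could be compared, 11 were higher and 3 lower. The formyl peptide receptor Fpr1 had 101 against 2.96 CPM and the platelet-activating factor receptor Ptafr 363 against 12.8 CPM, while the leukotriene receptor Ltb4r1 (88.2 against 363 CPM) and the integrin Itgb1 (16.9 against 49.2 CPM) had the lowest ratios.

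Cxcr4 was the receptor read in the most cells. The order of its classes opened with basophil-like cells at 1028 CPM (944 to 1119), pre-B-like cells at 949 CPM, NK-like cells at 922 CPM and immature or mature B-like cells at 874 CPM. Neighbours in this order were not told apart by counting error. Below them came mature neutrophil-like cells at 804 CPM, T-like cells at 645 CPM, macrophage-like cells at 553 CPM and pro-B-like cells at 382 CPM. Plasmacytoid dendritic-like, monocyte-like and conventional dendritic-like cells lay between 357 and 363 CPM, and stem or progenitor-like cells at 168 CPM. The floor was erythroid-like cells at 14.9 CPM, with early erythroid-like cells at 103 CPM. Fos had 98.3 CPM in basophil-like, 11.04 CPM in pre-B-like and 794 CPM in mature neutrophil-like cells, and Jun 181, 158 and 86.0 CPM. Egr1 had 1117 CPM in immature or mature B-like cells. The part of these genes in the Cxcr4 order was not tested.

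Basophil-like cells, 70 cells led by Prss34 and Mcpt8, held Cxcr4 in 60 cells and Ccr1 in 45. Against all other kept cells, 2 of the 9 receptors (Cxcr4 at 2.93-fold, 2.68 to 3.19, and Ccr1 at 3.56-fold, 2.97 to 4.23) were at least 2-fold higher and 3 were called lower, where 18.9% and 13.6% of genes were called. Of the 3, Cxcr5 had no UMI and was at least 1.30-fold lower, Cx3cr1 had 2 UMIs with an interval of 0.0444 to 1.33 that includes 1, and Ccr7 had 6 UMIs (0.222, 0.0815 to 0.484). Cxcr2 had 66.2 CPM there, behind intermediate and ahead of immature neutrophil-like cells in its order. The neutrophil gene S100a8 had 4928 CPM in the same cells, against 75504 CPM in mature neutrophil-like cells, and the part of neutrophil RNA in that Cxcr2 value was not tested.

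In the B lineage Cxcr4 and Ccr7 were read in every class, while most Cxcr5 came from the last stage before the plasma cell. The pro-B-like class was named from markers of pro-B or large pre-B cells. Cxcr4 had 382 CPM in pro-B-like cells, 949 CPM in pre-B-like cells, 874 CPM in immature or mature B-like cells and 84.3 CPM in the 49 plasma cell-like cells. Ccr7 had 56.5, 99.4, 429 and 14.4 CPM in the same classes. Cxcr5 had 6.28, 5.19 and 99.9 CPM in the first 3 and no UMI in plasma cell-like cells, which allows up to 3.33 CPM. Immature or mature B-like cells held 45.6% of all Ccr7 UMIs and 73.9% of all Cxcr5 UMIs.

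Immature or mature B-like cells were 17.8-fold (14.02 to 22.9) above pro-B-like and pre-B-like cells in Cxcr5 and 5.17-fold (4.80 to 5.57) above them in Ccr7. Cxcr4 was 1.19-fold (1.15 to 1.24) higher, within 2-fold. Ccr9 was 5.62-fold (2.99 to 10.8) higher on 27 against 18 UMIs. In all, 6 of the 9 receptors could be compared, 3 were higher and 1 lower (Ccr2, on 3 against 28 UMIs, with an interval of 0.0782 to 1.30 that includes 1 and no call under 4 of the alternative settings), where 9.25% and 15.1% of 11110 genes were called. Against all other kept cells this class was higher in 3 of 9 receptors (Cxcr4, Cxcr5 and Ccr7) and lower in 6, where 19.5% and 22.7% of genes were called.

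The class held clusters that differed in all 3 receptors. The 543 cells led by H2-DMb2, Ighd and Fcer2a, genes of the mature naive B cell, had 631 CPM Ccr7, 128 CPM Cxcr5 and 1099 CPM Cxcr4. The 571 cells led by Egr3 and Ms4a1 had 281 CPM Ccr7, 79.5 CPM Cxcr5 and 709 CPM Cxcr4. The ratios were 2.25 (2.04 to 2.49), 1.61 (1.31 to 1.97) and 1.55 (1.45 to 1.66). Among pre-B-like cells, the 1208 cells led by Rag1, with no cell cycle marker raised, had 1099 CPM Cxcr4 and 127 CPM Ccr7, against 870 and 85.1 CPM in the 694 cells with 7 of 7 cell cycle markers raised. Ccr7 went the other way in the pro-B-like class. It had 14.2 CPM in the 279 cells led by Dntt against 79.7 CPM in 173 cells led by Nrgn and Igll1, a ratio of 0.178 (0.116 to 0.263). These 173 cells had 4 of 7 cell cycle markers raised. The class was named from markers of pro-B or large pre-B cells, so its clusters may differ in stage, which was not tested. Cxcr4 and Cxcr5 were higher in the Dntt-led cells, at 1.63-fold (1.5002 to 1.78) and 4.56-fold (2.11 to 10.6).

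**Figure D3:**
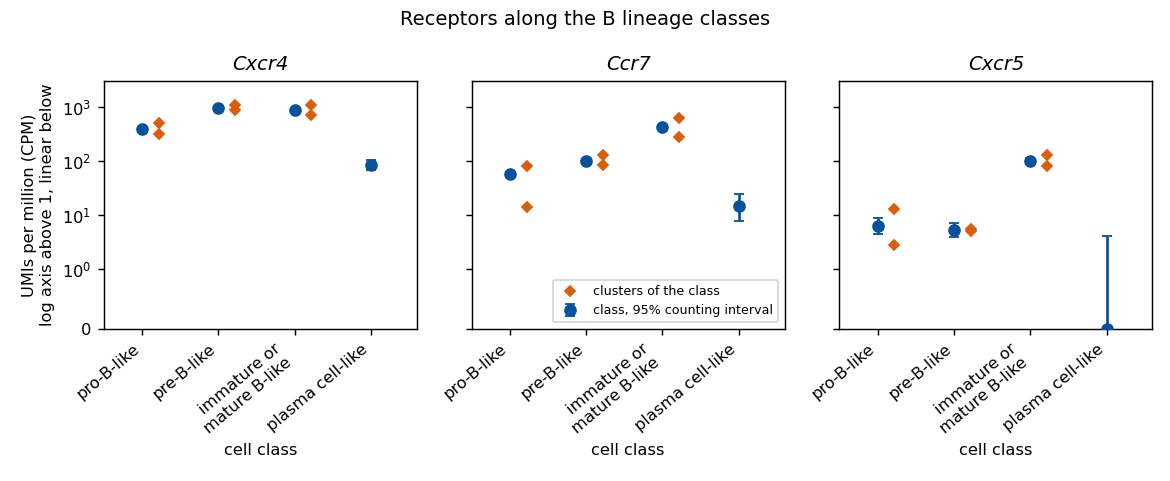
CPM (symmetric log axis, linear below 1) of Cxcr4, Ccr7 and Cxcr5 in the B lineage classes. Blue points are classes with 95% counting intervals and orange diamonds their clusters. Cxcr5 is at 6.28 and 5.19 CPM in pro-B-like and pre-B-like cells and at 99.9 CPM in immature or mature B-like cells, while all 3 receptors are low or at 0 in plasma cell-like cells.

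Of the 16 other receptor genes, 3 could be compared between these B stages and 2 were higher. Of all 11110 genes compared, 9.25% were higher and 15.1% lower. Ccr6, a receptor of mature B cells for Ccl20, had 79 UMIs against none, at least 98.7-fold higher. Ccrl2 had 3.84 against 7.65 CPM. Of the ligands, 10 could be compared and 1 was higher, Ccl4 at 19.7 against 1.504 CPM. Of the signalling genes, 34 could be compared, 4 were higher and 3 lower, with a median log2 ratio of 0.11 against -0.12 for all genes. Rgs1 had 90.2 against 4.99 CPM and Jak2 68.9 against 24.3 CPM, while Gnb4 (3.84 against 14.6 CPM) and Pik3r6 (0.513 against 1.78 CPM) had the lowest ratios. Of the other homing genes, 16 could be compared, 6 were higher and 2 lower. They included Gpr183, the oxysterol receptor that positions B cells in the follicle, at 69.7 against 1.09 CPM, and P2ry10 at 247 against 8.68 CPM.

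Ccr2 had its highest level in monocyte-like cells, at 717 CPM (695 to 739) with a UMI in 499 of 564 cells. Conventional dendritic-like cells followed at 484 CPM and NK-like cells at 476 CPM, which were not told apart. T-like cells had 159 CPM, macrophage-like cells 98.2 CPM and plasmacytoid dendritic-like cells 79.6 CPM. Granulocyte-monocyte progenitor-like cells had 45.9 CPM from 54 of 286 cells, so Ccr2 was read in a minority of that class. Of these 54 cells, 20 also had Ccr1, against 6.99 from the product of the shares, and 15 also had Cx3cr1, against 3.97. Cells with both were deeper than the class, with a median of 32266.5 and 29265 UMIs against 19873, and the part of depth in these counts was not tested.

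Cx3cr1, the receptor for the membrane-bound chemokine Cx3cl1, had 134 CPM (109 to 164) in macrophage-like cells, 88.5 CPM in monocyte-like cells and 57.1 CPM in conventional dendritic-like cells. The order of the first 2 turned round in deeper cells, clustered anew. The median macrophage-like cell had 1055 UMIs, and with at least 1500 UMIs per cell macrophage-like cells had 66.6 CPM against 92.4 CPM in monocyte-like cells. The monocyte-like class was not uniform. Its 56 cells led by Ace, Adgre4 and Treml4, genes of the non-classical patrolling monocyte, had 377 CPM Cx3cr1, against 74.0 CPM in the 508 cells led by Fn1 and F13a1, a ratio of 5.09 (4.06 to 6.33).

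The other receptors split the same monocyte clusters. Ccr2 had 194 CPM in the Ace-led cells and 743 CPM in the Fn1-led cells, a ratio of 0.261 (0.195 to 0.342). Ccr1 had 7.31 CPM, from 2 UMIs, against 233 CPM, a ratio of 0.0313 (0.00379 to 0.113). Cxcr4 was higher in the Ace-led cells, at 782 against 338 CPM, a ratio of 2.32 (2.00 to 2.67). In the class as a whole, 276 cells had UMIs of both Ccr1 and Ccr2, against 250 from the product of the shares, but thinned to 1000 UMIs the count was 33 against 40.5. Both Ccr1 and Cx3cr1 were read in 97 cells, against 125 from the product, and after thinning in 5 against 9.13. Among Ccr1-positive cells 34.3% had Cx3cr1, against 54.1% of the other monocyte-like cells.

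Between macrophage-like and monocyte-like cells, 7 of the 9 receptors could be compared, 2 were called higher and 3 lower, where 13.7% and 13.2% of 9790 genes were called. Ccr2 was at 0.137 of the monocyte level (0.107 to 0.173), a log2 ratio that ranged between -3.74 and -1.44 over the settings. Ccr1 was at 0.0808 (0.0429 to 0.139), or a log2 ratio of -3.58 that moved to -1.12 with at least 1500 UMIs per cell. Ccr7 was higher on 12 against 36 UMIs, a ratio of 2.64 (1.25 to 5.20) that fell under 2-fold at resolution 0.5, with doublets kept and with chemokine genes allowed in clustering. Cxcr2, called higher on 4 against 16 UMIs, had a ratio of 1.98 (0.482 to 6.14) that passed 2-fold only through the 0.5 counts added to each side, and Ccr9, called lower on 0 against 36 UMIs, had 27 of its 36 UMIs in 1 monocyte-like cell. Both of these turned round with at least 1500 UMIs per cell (log2 ratios of -0.45 and 1.61). Against all other kept cells, macrophage-like cells were higher in 1 of 9 receptors (Cx3cr1, 14.9-fold, 11.9 to 18.5) and called lower in 6, where 20.3% and 15.7% of genes were called. The log2 ratio of Cx3cr1, 3.91, moved to 2.88 with at least 1500 UMIs per cell. Of the 6, Cxcr3 and Cxcr5 had no UMI in macrophage-like cells, and with the 3 counts that a count of 0 allows neither was 2-fold lower. Monocyte-like cells were higher in 3 (Ccr1, Ccr2 and Cx3cr1) and lower in 4, where 12.9% and 21.7% were called.

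Of 18 ligands compared between the same classes, 11 were higher in macrophage-like cells and 5 lower, with a median log2 ratio of 1.15 against -0.07 for all genes. Of all 9790 genes compared, 13.7% were higher and 13.2% lower. Ccl8 had 98 UMIs against none, at least 259-fold higher, and Pf4 557 against 2.79 CPM, while Ccl3 had 13.8 against 59.7 CPM and Cxcl2 11.1 against 50.4 CPM. Of the other receptor genes, 4 could be compared: Ccr3 had 39 UMIs against none, at least 103-fold higher, and Ccrl2 206 against 35.1 CPM, while Gpr35 had 26.3 against 135 CPM. Of 33 signalling genes, 3 were higher, with Rgs1 at 642 against 63.5 CPM, and 5 lower, with Pik3r6 at 1.38 against 27.0 CPM. Of 17 other homing genes, 3 were higher and 7 lower, among them the leukotriene receptor Ltb4r1 at 15.2 against 94.9 CPM. Globin RNA was present in both classes, with Hbb-bs at 24807 CPM in macrophage-like and 13263 CPM in monocyte-like cells.

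Cxcr3 had its highest level in T-like cells, at 55.1 CPM (41.3 to 72.1) from 53 UMIs in 40 of 207 cells. Plasmacytoid dendritic-like cells had 26.0 CPM from 17 UMIs and NK-like cells 15.7 CPM from 8 UMIs, which were not told apart. Of 5 receptors compared, NK-like cells were higher in 2 and lower in 2, where 6.47% and 5.72% of 6942 genes were called. Ccr2 had 476 CPM in NK-like cells and 159 CPM in T-like cells, a ratio of 2.99 (2.43 to 3.68). Ccr7 had 50.9 and 302 CPM, a ratio of 0.169 (0.108 to 0.252), and Cxcr3 15.7 and 55.1 CPM, a ratio of 0.284 (0.117 to 0.601). Ccr9, called higher, came from 17 UMIs of 1 NK-like cell and was under 2-fold with a mitochondrial limit of 30%.

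Within T-like cells Ccr7 and Ccr2 were read mostly in different cells. Ccr7 had a UMI in 73 cells and Ccr2 in 54, and 7 cells had both, against 19.0 from the product of the shares. Of Ccr2-positive cells 12.96% had Ccr7, against 43.1% of the other T-like cells. Thinned to 1000 UMIs, 2 cells had both, against 4.33 from the product. Cxcr3 and Ccr7 shared 9 cells, against 14.1 from the product. The T-like cluster also had 9 of 13 natural killer markers raised, and their part in these overlaps was not tested. Against all other kept cells, T-like cells were higher in 3 receptors (Cxcr3, 70.3-fold, 47.4 to 104; Ccr7, 6.37-fold; Ccr2, 2.18-fold) and lower in 3, where 17% and 19.5% of genes were called.

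From the lists, Cxcr6 was lower in NK-like than in T-like cells (3.92 against 131 CPM), with Ccrl2 at 43.1 against 39.5 CPM. Of all 6942 genes compared, 6.47% were higher and 5.72% lower in NK-like cells. Ccl3 (50 UMIs against none, at least 31.4-fold higher) and Ccl2 (24 UMIs against none, at least 15.1-fold higher) led the 4 of 7 ligands that were higher, and all 24 Ccl2 UMIs came from 1 of 98 NK-like cells. Of 30 signalling genes 3 were higher and 2 lower, with Rgs16 at 68.5 against 15.6 CPM and Rgs10 at 11.7 against 78.0 CPM. Of 12 other homing genes 2 were higher and 2 lower, with Itgam at 84.2 against 15.6 CPM, and S1pr1, the egress receptor for sphingosine 1-phosphate, at 92.0 against 300 CPM.

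Ccr9 had the highest ratio of leading class to other kept cells of the 9. Plasmacytoid dendritic-like cells, 0.811% of kept cells, held 78.1% of its UMIs. Their level was 1259 CPM (1174 to 1348), with a UMI in 75 of 85 cells, 391-fold (337 to 454) above all other kept cells. All 85 cells had Siglech, a plasmacytoid dendritic marker used to name the class. Outside the class, the next levels came from few cells: 33.3 CPM in NK-like cells from 1 cell, 30.9 CPM in stem or progenitor-like cells from 9 cells and 18.9 CPM in basophil-like cells from 1 cell. The NK-like and basophil-like cells with Ccr9 were also the only cells of their classes with Siglech, at 22 and 16 Siglech UMIs. Of the 9 stem or progenitor-like cells with Ccr9, 6 had Siglech, where 14 of 119 cells of the class had it.

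Against conventional dendritic-like cells, the plasmacytoid class was higher in 1 of 5 receptors compared (Ccr9, 822 against 2 UMIs, a ratio of 342 with an interval of 94.3 to 2827 and a log2 ratio of 8.10 that moved to 5.06 with at least 1500 UMIs per cell) and lower in 2, where 26.5% and 9.31% of 6614 genes were called. The lower ones were Ccr2 (79.6 against 484 CPM, a ratio of 0.164, 0.120 to 0.222) and Cx3cr1 (12.3 against 57.1 CPM, a ratio of 0.215, 0.0852 to 0.477). Cxcr4 did not separate them, at 363 against 357 CPM, a ratio of 1.02 (0.837 to 1.23). The conventional dendritic-like cluster also had 9 of 12 monocyte markers raised, and the part of monocyte-like cells in its Ccr2 and Cx3cr1 was not tested. It was not a named class at resolution 0.5 or 2.0, at a mitochondrial limit of 30% or with chemokine genes allowed in clustering. Against all other kept cells the plasmacytoid class was higher in 2 receptors (Ccr9 and Cxcr3) and lower in 2, where 25.3% and 12.6% of genes were called. Of 7 ligands compared with conventional dendritic-like cells none was higher and 4 were lower, among them Cxcl16 (1.53 against 169 CPM) and Ccl2 (no UMI against 35, at least 14.03-fold lower). Of the other receptor genes, Ccrl2 (1.53 against 49.7 CPM) and Gpr35 (18.4 against 173 CPM) were lower. Of 31 signalling genes 6 were higher and 6 lower, with Gnb4 at 52.1 against 11.1 CPM and Rgs1 at 39.8 against 302 CPM. Of 13 other homing genes 3 were higher and 2 lower, with S1pr4 at 61.3 against 9.21 CPM and Itgam at 30.6 against 168 CPM.

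**Figure D4:**
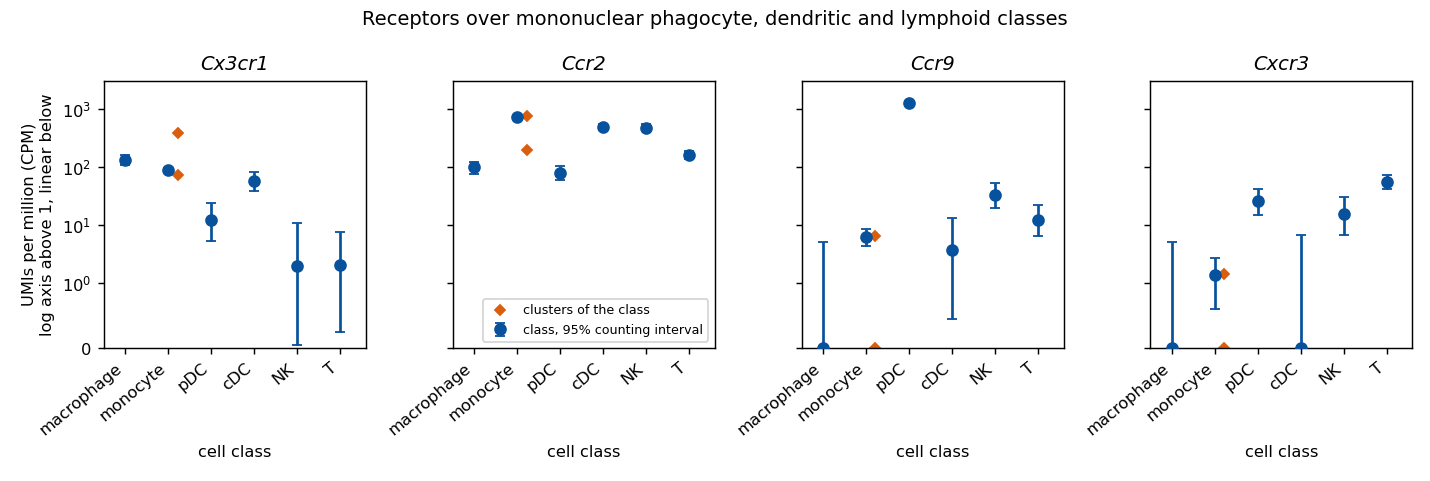
CPM (symmetric log axis, linear below 1) of Cx3cr1, Ccr2, Ccr9 and Cxcr3 in macrophage-like, monocyte-like, plasmacytoid (pDC) and conventional dendritic-like (cDC), NK-like and T-like cells. Blue points are classes with 95% counting intervals, orange diamonds the monocyte clusters. The Ace-led and Fn1-led monocyte clusters stand at 377 and 74.0 CPM for Cx3cr1 and at 194 and 743 CPM for Ccr2, and Ccr9 stands at 1259 CPM in pDC.

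Bone cells and the unnamed clusters gave few values. Osteoclast-like cells had 181 CPM Ccr1 (151 to 216) in 20 of 34 cells and 189 CPM Cxcr4 in 26 cells. All 20 Ccr1-positive osteoclast-like cells also had Cxcr4, against 15.3 from the product of the shares. These 20 cells were deeper than the class, with a median of 29017.5 against 20606.5 UMIs. Thinned to 1000 UMIs, none of 30 osteoclast-like cells had both, against 0.6 from the product. The part of depth in this overlap was not tested. Osteoblast-like cells had 11.4 CPM Cxcr4 from 4 UMIs, and their 9 Ccr2 UMIs all came from 1 cell. The 105 unnamed cells led by Cxcl12 had 1801 CPM Cxcl12 (1657 to 1953), the ligand of Cxcr4, against 40.1 CPM in macrophage-like cells, the highest of the ranked classes. They also had 401 CPM Cxcr4 (334 to 476), 46.6 CPM Cxcr2 and 55.9 CPM Ccr1. The same cells held 38164 CPM of the neutrophil gene S100a8 and 550 CPM of the B cell gene Cd79a, whose part in these receptor values was not tested. A cluster of 18 unnamed cells led by Calca, Gata3, Cxcr6 and Il5 had 1886 CPM Cxcr4 (1573 to 2242) and 575 CPM Ccr2 (409 to 785), in 14 and 12 cells.

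The cognate ligands were read in other classes than their receptors in several cases and in the same class in others. Cxcl2 was highest in mature neutrophil-like cells at 913 CPM, the class with the most Cxcr2. Ccl2 was highest in monocyte-like cells at 166 CPM, the class with the most Ccr2, followed by macrophage-like cells at 141 CPM. Ccl3 and Ccl9, which act on Ccr1, were highest in basophil-like cells at 2611 and 1297 CPM, and Ccl6 in mature neutrophil-like cells at 2260 CPM. Ccl5 was highest in NK-like cells at 6470 CPM and in T-like cells had 2972 CPM. Cxcl9, a Cxcr3 ligand, was highest in macrophage-like cells at 44.3 CPM, and Pf4 in stem or progenitor-like cells at 691 CPM. The stem or progenitor-like class also had 5 of 11 megakaryocyte or platelet markers raised, whose part in the Pf4 level was not tested. Ccl25, the ligand of Ccr9, was at or below 22.9 CPM in the ranked classes. The ligands Cxcl5, Cxcl13, Ccl12 and Cx3cl1 had between 2 and 16 UMIs in all kept cells.

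Over the 17 ranked classes, the genes with the most similar profile to each receptor were found by Pearson correlation of log2(CPM + 10), as a description in which all points share 1 library. For Cxcr2 they were AC110211.1 (r = 0.97), Gm20406 (0.97) and Asprv1 (0.95), and for Ccr1 Dgkg, Cd300lb and Osm (0.95, 0.95 and 0.94). For Cxcr4 they were Chkb (0.94), Zfp110 (0.92) and Ptk2b (0.91), and for Cxcr3 Cd8a (0.91), Cd28 (0.90) and Ncald (0.90). For Cxcr5 they were Cr2 (0.95), B3gnt7 (0.95) and Ffar1 (0.94), and for Ccr7 Grap (0.96), Ndor1 (0.92) and Zc3h12d (0.91). For Ccr2 they were Fam105a (0.93), S100a4 (0.90) and Elmo2 (0.89), for Cx3cr1 Adgre4, Pros1 and Ifi207 (0.97, 0.96 and 0.96), and for Ccr9 Siglech (0.97), Cox6a2 (0.96) and Wfs1 (0.95). Among the 9, the closest pairs were Cxcr2 with Ccr1 (0.84), Cxcr5 with Ccr7 (0.78) and Ccr2 with Cx3cr1 (0.65).

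Erythroid-like cells served as the comparison for background. In erythroid-like cells, which are not known to use these receptors, 91.1% of 1094 cells had no UMI of any of the 9, although 3 receptors there, Cxcr4, Ccr7 and Ccr2, had 102, 20 and 9 UMIs and Ccr9 none. After thinning each cell to 1000 UMIs, which left out 557 cells, Cxcr2 was read in 49.9% of mature neutrophil-like cells (70.0% before thinning) and in 0.184% of erythroid-like cells. Ccr1 was read in 50.7% of mature neutrophil-like cells against 0.184%, Ccr2 in 49.4% of monocyte-like cells against 0.0918% and Cxcr4 in 61.8% of basophil-like cells against 1.01%. Ccr9 was read in 61.2% of plasmacytoid dendritic-like cells against 0 of the erythroid-like cells. Ccr7 was read in 31.6% of immature or mature B-like cells against 0.367%, and Cxcr5 in 9.32% against 0. Cx3cr1 was read in 10.2% of macrophage-like and 11.1% of monocyte-like cells, and Cxcr3 in 4.43% of T-like cells, where the thinned share is close to the reach of 1 UMI. The median depth was 1979 UMIs in mature neutrophil-like and 6005.5 UMIs in erythroid-like cells, where Hbb-bs alone took 344233 CPM. Thinning dropped a larger share of UMIs in the deeper erythroid-like cells, and globin filled part of what was left. Their shares may therefore lie below the background of shallower classes. Free RNA itself was not measured.

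**Figure D5:**
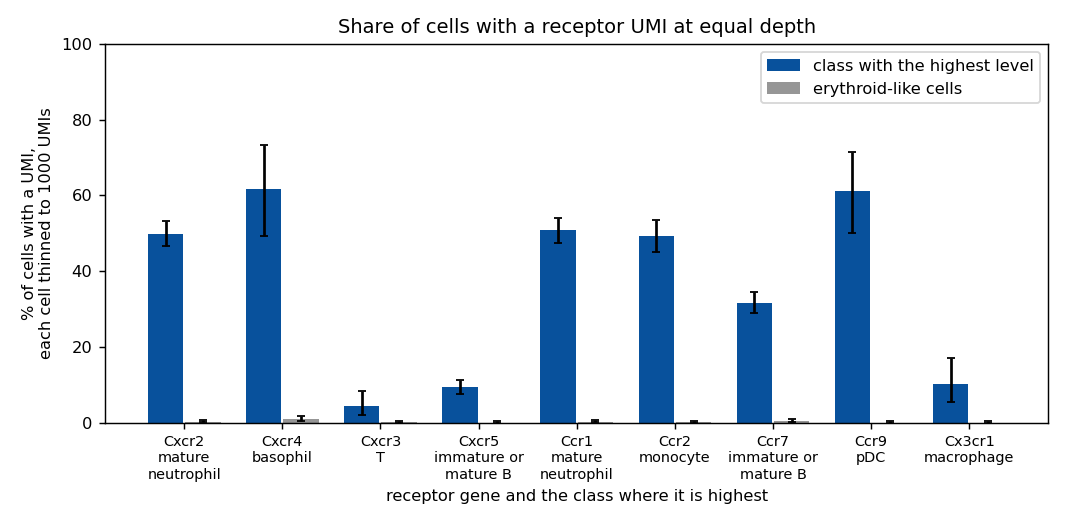
Percentage of cells with a UMI of each receptor after each cell was thinned to 1000 UMIs, in the class with that receptor's highest level (blue) and in erythroid-like cells (grey), with 95% Clopper-Pearson intervals. The blue bars run between 4.43% for Cxcr3 and 61.8% for Cxcr4, and the tallest grey bar is 1.01%, for Cxcr4.

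Counted per cell, monocyte-like cells carried the most kinds of receptor, with a median of 3 of the 9 and at least 3 in 59.4% of cells. Mature neutrophil-like cells had a median of 2 and at least 2 in 79.1% of cells. These counts were not matched for depth, whose median was 7878.5 UMIs in monocyte-like and 1979 in mature neutrophil-like cells. Every plasmacytoid dendritic-like cell had at least 1. At the other end 91.1% of erythroid-like and 71.4% of the 14 osteoblast-like cells had none, followed by 59.0% of early erythroid-like and 55.2% of macrophage-like cells.

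The genes lie on 4 chromosomes (GENCODE M21, mm10). Cxcr2 (chr1:74153989-74161246) and Cxcr4 (chr1:128588199-128592293) are on chromosome 1, Ccr7 (chr11:99144196-99155077) on chromosome 11 and Cxcr3 (chrX:101731535-101734269) on the X chromosome. The other 5 are on chromosome 9: Cxcr5 (chr9:44511787-44561877), Cx3cr1 (chr9:119901616-120069879), Ccr9 (chr9:123678439-123784330), Ccr1 (chr9:123962124-123968692) and Ccr2 (chr9:124101950-124113557). The last 3 lie in a run of receptor genes that also holds Cxcr6, Xcr1, Ccr1l1 and Ccr3. Neighbours in the run were highest in different classes: Ccr9 in plasmacytoid dendritic-like, Cxcr6 in T-like (131 CPM), Ccr1 in mature neutrophil-like, Ccr3 in macrophage-like (53.9 CPM) and Ccr2 in monocyte-like cells. Ccr9 shares exon sequence with Gm17200 on its own strand, so reads there could be counted under either gene or neither. Exons of Cxcr5, Ccr9 and Cx3cr1 also overlap genes on the other strand.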

How the data were processed

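The deposited table holds raw UMI counts per gene and barcode, in 1 matrix for the 4 sample records. All barcodes carry the same suffix, and the table was treated as 1 library. Cell Ranger 3.1.0, Seurat 3 and mm10 are named in the submitters' processing notes. Kept barcodes had 500 UMIs or more, 200 genes or more and no more than 10% mitochondrial UMIs (1335 failed on genes, 2672 on mitochondrial UMIs). Scrublet in scanpy 1.11.5 removed 522 doublets (4.74%). After scaling to 10000 UMIs and log transformation, 2000 variable genes without the chemokine system gave 30 components for Leiden clustering (15 neighbours, resolution 1). A cluster took the name of the marker list with the most genes raised 2-fold, given 3 raised markers and a share of 0.333 of the list, while shallow, mixed or contradicted clusters stayed unnamed. This naming rule was set after the clusters were seen.

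With 1 library no p-value was computed. A gene was called at 2-fold with 20 or more UMIs over both sides, on a log2 ratio with 0.5 counts added. A count of 0 allows up to 3 counts. Named are the 9 receptors, the 3 genes most like each (100 UMIs or more), the extreme members of each list in each comparison, of which a selection is printed, and cognate ligands. Receptors, lists and comparisons were chosen with earlier results of these data known. Comparisons between clusters of a class, and of Ccr9 with Siglech, were chosen after their values were seen. RefSeq gave upstream sequence for 7 of 9 receptors, not Cxcr5 and Ccr7. The ratio calculation was tested on simulated counts. Alternatives covered filters, doublets, resolution, clustering genes, scaling and thinning. Some list members are not reported here.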

Additional observations from a re-analysis of the deposited data

How the results depend on the processing

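Of 340 single values recomputed under the alternatives, 251 moved by less than their counting interval, 87 moved by more without a called value changing sign, and 2 reversed. For macrophage-like against monocyte-like cells with at least 1500 UMIs per cell, Cxcr2 had a log2 ratio of -0.45 (1.11 in the report) and Ccr9 1.61 (-3.20), both on few UMIs. A mitochondrial limit of 5% kept 5490 cells, of which 22.1% were unnamed. Under it 3 of the 9 receptors kept their leading class. The 4 receptors whose leading class was still named were at least 2-fold higher there than in other cells (9 of 9 in the report). Leading classes were chosen for the highest level, which favours such a result. Of the stage contrasts, 4 of 5 were called (20 of 28 in the report). An interval wholly above the erythroid one was found for 4 thinned shares (9 in the report). Under the 5% limit 7 of 20 pairs fell below the product of shares (17 of 59). Fewer classes were named there, so fewer comparisons could be made. At resolution 0.5 plasmacytoid dendritic-like cells were not a class of their own, and stem or progenitor-like cells led Ccr9 at 366 CPM. The Ccr2 ratio of mature to immature neutrophil-like cells had a log2 of 1.78 at a mitochondrial limit of 30% (3.50 in the report), and the Ccr2 ratio of macrophage-like to monocyte-like cells ranged between -3.74 and -1.44. Cx3cr1 had a log2 ratio of -0.47 between these classes with at least 1500 UMIs per cell (0.61 in the report), and Cxcr4 of basophil-like against other cells 2.67 at the 5% limit (1.55). The cause was not tested. Thinning to 500 or 2000 UMIs gave Cxcr2 in 29.6% and 68.5% of mature neutrophil-like cells. For the leading classes, leaving out unnamed clusters or, for each receptor, the leading-class cell with the most UMIs of that receptor changed no call. Both of these were chosen after seeing the data. Leaving out a replicate was not possible, since the records cannot be separated. No paired analysis was possible because the barcodes of the 4 records cannot be told apart. The planned comparison of receptor protein sequences was not run.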
